A study of Mus musculus with 6 samples.

Results

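The p38 and JNK mitogen-activated protein kinases and 3 of the kinases directly upstream of them were examined in the inguinal white fat, a depot under the skin, of Atf7 knockout (KO) and wild-type (WT) mice. They comprise 10 genes, namely the p38 genes Mapk11, Mapk12, Mapk13 and Mapk14, the JNK genes Mapk8, Mapk9 and Mapk10, and the MAP2K genes Map2k3, Map2k4 and Map2k6. All probe sets annotated to 1 of these symbols were taken, which gave 10 genes of 19937 that had a probe set with a single symbol, and 11 of the 34760 probe sets on the array, and 0 probe sets with several symbols included one of them. Mapk10 had 2 probe sets and each other gene had 1. No filter on dim probe sets was applied, so all 11 were tested. Map2k7, another MAP2K gene, was not among the 10 genes and had no probe set with that single symbol.

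Total RNA was hybridised to 6 arrays, 1 per mouse, from 3 KO mice and 3 WT littermates. All were males on a C57BL/6 background, taken at an age of 5 weeks from matings of Atf7 heterozygotes. The labels name no treatment, no promoter-driven deletion and no batch, and they do not say which part of Atf7 the allele removes. The deposited values are RMA expression levels in log2 units. Levels are compared between arrays for the same probe set, since the signals of different probe sets do not give their relative amounts of RNA.

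p38 and JNK are serine/threonine kinases that cells switch on under stress, cytokines and, in fat, adrenergic stimulation. A MAP3K phosphorylates a MAP2K, and the MAP2K phosphorylates p38 or JNK on a threonine and a tyrosine of the activation loop. Map2k3 and Map2k6 encode the main activators of p38, Map2k4 encodes an activator of JNK that can also act on p38, and among the substrates of p38 and JNK are the ATF2-family transcription factors, to which ATF7 belongs. In brown and beige fat cells p38 is known to act between adrenergic receptors and the gene for the uncoupling protein Ucp1. The arrays measured the RNA of these kinases, and their phosphorylation or activity was not measured.

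ATF2-family factors bind the cAMP response element (CRE), with the letters TGACGTCA. The 250 bases upstream of the annotated start were therefore searched for it in the 16 promoter windows that RefSeq (GRCm38.p6) lists for the 10 genes. The CRE was present in 1 of them, a Mapk10 window, with its first base 29 bases before the start, against 1.55% of all 32851 windows of the same length. Its core TGACG, searched on both strands and contained in every CRE, was present in 1 window each of Mapk8, Mapk9, Mapk10, Mapk11 and Map2k4, against 17.8% of all windows. A related letter string, TGANTCA, which AP-1 factors bind, was found for Map2k6 alone and in 6.75% of all windows. Shown here are the windows of Mapk11 and Mapk12, the neighbouring genes with the smallest p-values among the kinases, and the Mapk10 window with the CRE, each 5′ to 3′ on the strand of its gene, with the core or the CRE in capitals. The windows are chr15:89149607-89149856, chr15:89140704-89140953 and chr5:103211335-103211584, all on the minus strand.
Mapk11: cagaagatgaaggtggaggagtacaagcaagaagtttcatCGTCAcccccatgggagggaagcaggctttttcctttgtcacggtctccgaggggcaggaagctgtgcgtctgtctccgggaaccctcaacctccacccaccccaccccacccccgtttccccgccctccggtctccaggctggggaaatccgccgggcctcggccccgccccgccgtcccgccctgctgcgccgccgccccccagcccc
Mapk12: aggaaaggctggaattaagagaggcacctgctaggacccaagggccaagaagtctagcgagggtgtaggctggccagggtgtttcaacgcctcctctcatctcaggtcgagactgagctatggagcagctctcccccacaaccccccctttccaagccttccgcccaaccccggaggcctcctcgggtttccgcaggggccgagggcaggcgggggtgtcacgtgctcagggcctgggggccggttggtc
Mapk10: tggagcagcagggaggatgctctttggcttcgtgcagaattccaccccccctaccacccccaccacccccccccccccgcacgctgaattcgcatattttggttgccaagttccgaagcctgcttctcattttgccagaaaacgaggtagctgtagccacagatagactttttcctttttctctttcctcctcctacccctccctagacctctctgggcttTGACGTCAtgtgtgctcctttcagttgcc
In Mapk11 the core stands on the reverse strand, as CGTCA, 210 bases before the start. In Mapk12 neither string occurs in this window. A match is a description of the letters, and binding was not measured here.

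Atf7 itself was lower in KO on 1 of its 2 probe sets. Probe set 10433032 had 6.22, 6.53 and 6.49 in the KO arrays, against 8.95, 9.20 and 9.07 in the WT arrays, a log2 difference of -2.66 (limma, adjusted p 0.00658 over all probe sets). The difference was -2.72 to -2.56 without each array, but the call was lost, at an adjusted p of 0.0745 without WT replicate 1, 0.147 without WT replicate 3, 0.0792 under a replicate block and 0.106 after adjustment for the lymphocyte score. Probe set 10433034 averaged 9.25 ± 0.16 in the KO arrays, against 9.42 ± 0.09 in the WT arrays (SD, n = 3 each), and did not pass (adjusted p 0.73 from limma). Correlations across probe sets ran from 0.969 to 0.981 between KO replicate 3 and the other arrays, and from 0.984 to 0.99 among those 5 arrays. Of the T cell markers all 14 measured were lower in KO, as were all 11 B cell markers, and a lymphocyte score, the mean of these lists after centring each gene on its mean over the 6 arrays, was -0.11, 0.67 and -2.65 in the KO arrays, against 0.71, 0.56 and 0.82 in the WT arrays. Since the lymphocyte score of KO replicate 3 lay far below those of the other 5 arrays, adjustment for it rests largely on that array. Adjustment for this score and leaving out KO replicate 3 are therefore not separate checks. A skeletal muscle score of 20 genes was 1.21, -1.18 and -1.19 in the KO arrays, against -1.25, 1.96 and 0.46 in the WT arrays. Of 11 adipocyte markers measured 8 were positive and 3 negative, with a median difference of 0.15 and none at an unadjusted p under 0.05. Among them Pparg differed by 0.40, and Adipoq averaged 12.46 ± 0.22 in KO and 12.47 ± 0.09 in WT (SD, n = 3 each). Fewer cells of a type and less RNA per cell cannot be told apart in such tissue samples.

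None of the 11 kinase probe sets passed an adjusted p of 0.05 in limma over all probe sets, where 0.00575% of probe sets did. At an unadjusted p under 0.05 there were 2 of 11, Mapk11 lower and Mapk12 higher in KO, where 6.89% of all probe sets passed in either direction, 4.05% higher and 2.84% lower. The 2 became 1 when KO replicate 1, KO replicate 2 or WT replicate 1 was left out, and 0 when WT replicate 2 or WT replicate 3 was. The share of all probe sets at that threshold in those fits is not given here. KO and WT arrays did not overlap for 3 of 11, Mapk12 with KO above and Mapk11 and Mapk8 with KO below, where 13.1% of all probe sets did not overlap, 7.1% with KO above and 5.97% with KO below. The kinase differences had a median size of 0.045 on the log2 scale, against 0.12 for all probe sets, and 4 of 11 were positive, against 50.9% of all probe sets.

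**Figure D1:**
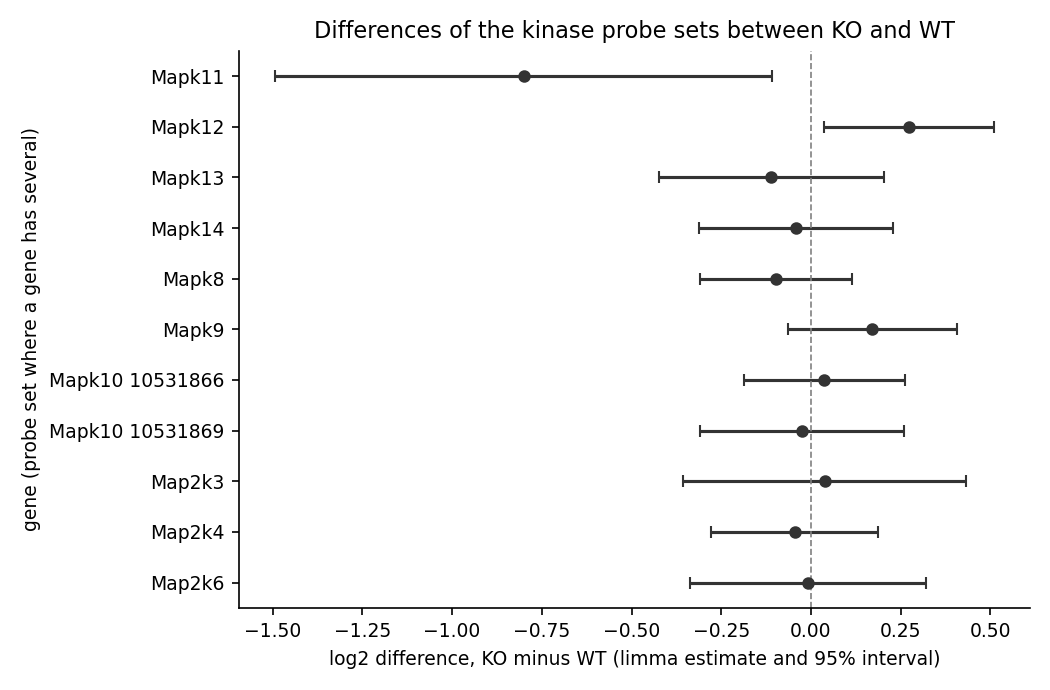
Limma estimates of the log2 difference, KO minus WT (x axis), with 95% intervals for the 11 kinase probe sets (y axis). The intervals of Mapk11 (-1.49 to -0.11) and Mapk12 (0.04 to 0.51) lie on opposite sides of 0, and those of the other 9 probe sets include 0.

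Mapk11 encodes p38 beta. It was at 7.56, 7.96 and 6.76 in the KO arrays, against 8.16, 8.15 and 8.37 in the WT arrays. No KO array reached the level of a WT array, and the KO arrays were spread over 1.20 log2 units, against 0.23 for the WT arrays. The mean was 7.43 ± 0.61 in KO and 8.23 ± 0.13 in WT (SD, n = 3 each), a log2 difference of -0.80 (SE 0.29), which is 1.74-fold lower, with an unadjusted p of 0.029 and an adjusted p of 0.696 from limma. An exact two-sided permutation test gave 0.1, the smallest p that 3 arrays against 3 allow. KO replicate 3 set much of the size, since the difference was -0.47 without it and -1.07 without KO replicate 2.

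The level of Mapk11 went with the lymphocyte markers across arrays. Its lowest value stood on KO replicate 3, the array with the lowest lymphocyte score, and its second lowest on KO replicate 1, the array with the second lowest score. KO replicate 2, whose score lay within the WT range, was at 7.96 for Mapk11, against a lowest WT value of 8.15. The T cell list had a mean centred level of -2.16 to 0.56 in KO and 0.53 to 0.75 in WT, and the B cell list -3.27 to 0.80 in KO and 0.61 to 0.91 in WT. After adjustment for the lymphocyte score the Mapk11 difference was -0.31, with an unadjusted p of 0.043 from limma, which did not pass after adjustment over all probe sets. The named genes with the most similar profiles, by the root mean square distance between profiles centred over the 6 arrays, were Itgae, an integrin subunit (0.038 log2 units), Bcl2, a restrainer of cell death (0.042), and Dapp1, an adaptor protein (0.057). Itgae was at 6.64, 7.06 and 5.95 in KO, against 7.27, 7.31 and 7.48 in WT.

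**Figure D2:**
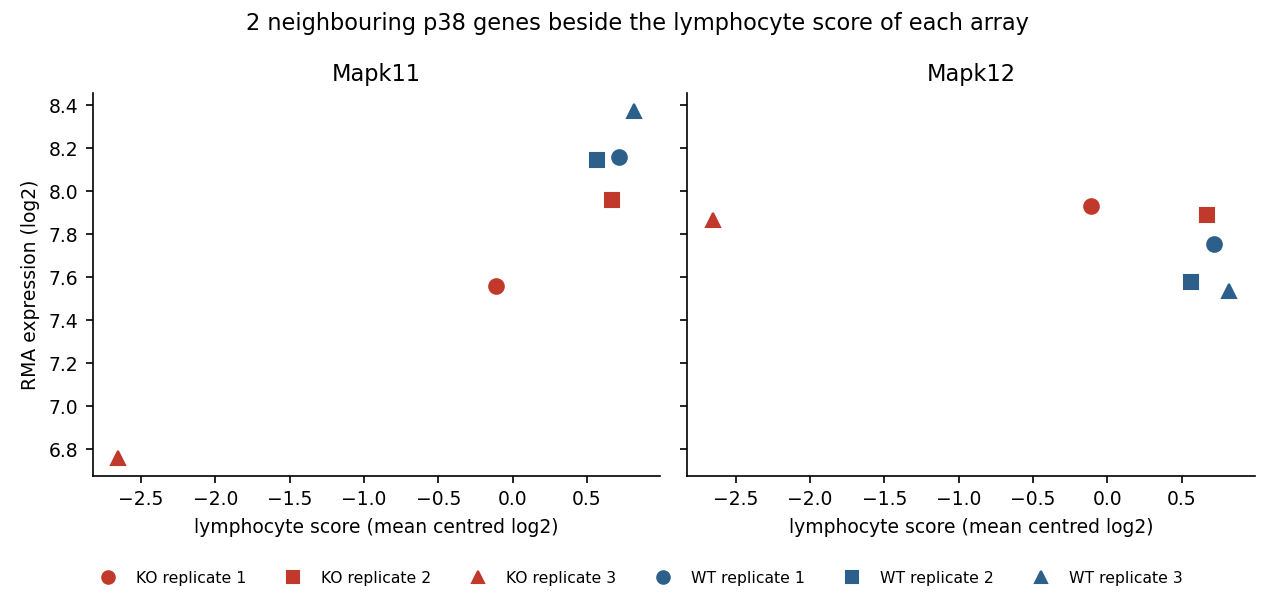
RMA expression in log2 units (y axis) of Mapk11 (left) and Mapk12 (right) against the lymphocyte score of the same array (x axis), with 1 point per array. KO replicate 3, at a score of -2.65, has the lowest Mapk11 level (6.76), and its Mapk12 level (7.87) lies beside those of the other KO arrays (7.89 and 7.93).

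Mapk12, the gene next to Mapk11 with 0 annotated genes between them in GRCm38.p6, encodes p38 gamma, which is known for high expression in skeletal muscle. It lay at 7.93, 7.89 and 7.87 in the KO arrays, against 7.75, 7.58 and 7.54 in the WT arrays. All KO arrays were above all WT arrays, in the direction opposite to Mapk11, and the KO arrays were within 0.06 of each other. The mean was 7.90 ± 0.03 in KO and 7.62 ± 0.11 in WT (SD, n = 3 each), a log2 difference of 0.27 (SE 0.10), 1.21-fold higher, with an unadjusted p of 0.030 and an adjusted p of 0.696 from limma. The exact permutation p was again 0.1. The difference ran from 0.23 to 0.34 when each array in turn was left out, and adjustment for the lymphocyte or the muscle score left 0.29 and 0.26. With either score the unadjusted p of Mapk12 from limma was no longer under 0.05. WT replicate 1, which had the lowest muscle score of the WT arrays (-1.25), had their highest Mapk12 level, while KO replicate 1, which had the highest muscle score of the KO arrays (1.21), had the highest Mapk12 level of all 6 arrays. The most similar profiles were those of Daam1 (distance 0.032 log2 units), Tmem8b (0.035) and Ttc12 (0.035). Mapk11, Mapk12 and Atf7 are annotated on the same chromosome. Whether sequence linked to the Atf7 allele has a part in the Mapk11 and Mapk12 differences was not tested.

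Mapk14 encodes p38 alpha, a widely expressed p38 isoform. It was at 9.18, 9.21 and 9.09 in the KO arrays, against 9.17, 9.38 and 9.07 in the WT arrays. The KO arrays lay inside the WT range, with means of 9.16 ± 0.06 in KO and 9.20 ± 0.16 in WT (SD, n = 3 each). The log2 difference was -0.04, with a 95% interval of -0.31 to 0.23. Mapk13, which encodes p38 delta and is known from epithelia, was at 6.11, 6.17 and 6.28 in KO, against 6.27, 6.52 and 6.10 in WT. The groups overlapped, with a difference of -0.11 (95% interval -0.42 to 0.20). Its highest value stood on WT replicate 2, which also had the highest level of 10 epithelial markers, at 1.26 against -0.35 to -0.18 on the other arrays, and without that array the Mapk13 difference was 0.00038. The part of epithelial RNA in the Mapk13 values was not tested.

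**Figure D3:**
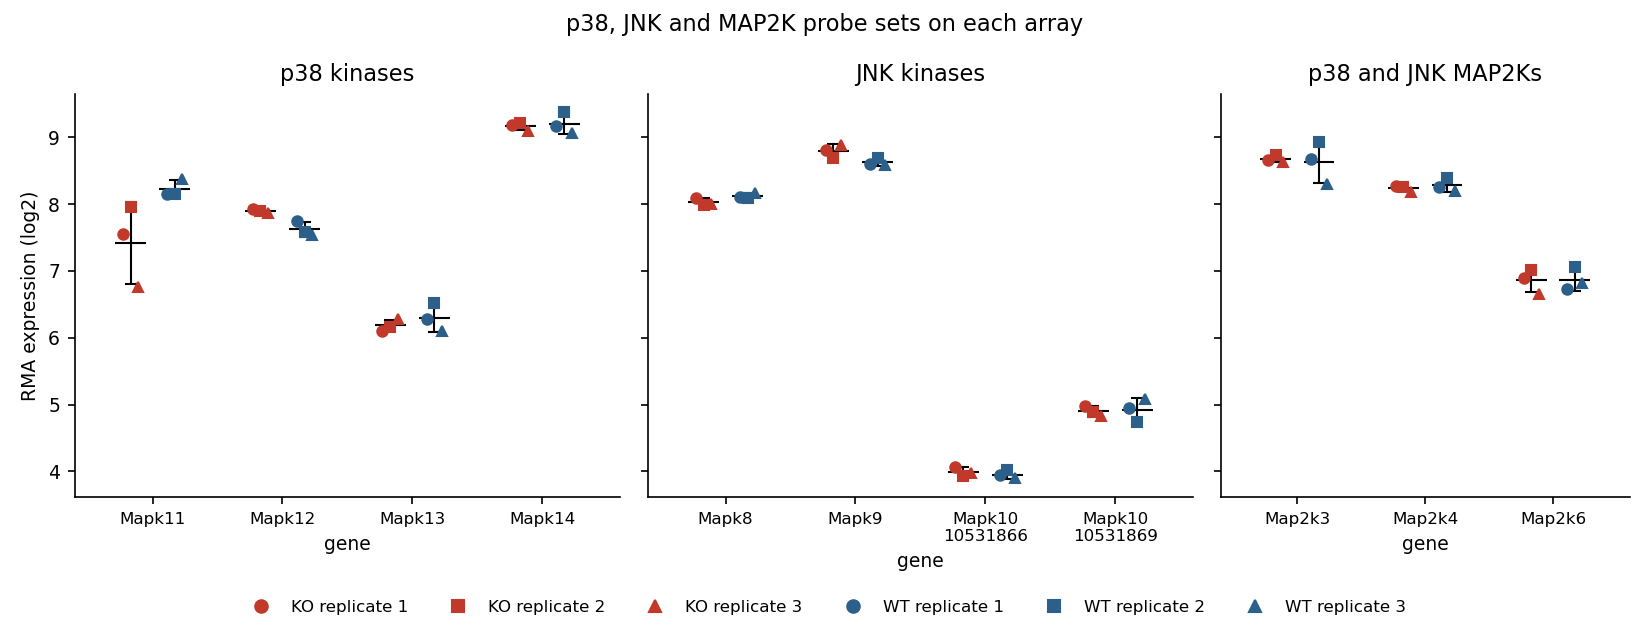
RMA expression in log2 units (y axis) of each kinase probe set on each array, with KO in red and WT in blue, a symbol per replicate, and black bars for the mean ± SD of 3 arrays. Mapk11 is lower and Mapk12 higher on all KO arrays, and KO and WT arrays overlap for all others but Mapk8.

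Among the JNK genes, the widely expressed Mapk8 (JNK1) and Mapk9 (JNK2) differed in opposite directions by small amounts, and neither passed. Mapk8 was at 8.09, 7.99 and 8.0 in the KO arrays, against 8.11, 8.10 and 8.17 in the WT arrays. The groups did not overlap, but the nearest KO and WT arrays were almost level, and the log2 difference was -0.10 (95% interval -0.31 to 0.12, unadjusted p 0.312, adjusted p 0.788 from limma). Mapk9 was at 8.81, 8.68 and 8.89 in KO, against 8.61, 8.68 and 8.59 in WT. KO replicate 2 and WT replicate 2 were at the same level and the other KO arrays were above all WT arrays. The mean was 8.80 ± 0.10 in KO and 8.63 ± 0.05 in WT (SD, n = 3 each), a log2 difference of 0.17 (SE 0.10, 95% interval -0.06 to 0.41, unadjusted p 0.13, adjusted p 0.706). It was 0.12 without KO replicate 3 and 0.09 after adjustment for the lymphocyte score.

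Mapk10, which encodes JNK3 and is known chiefly from neurons, had low signals on both probe sets. Probe set 10531869 was at 4.99, 4.89 and 4.82 in the KO arrays, against 4.96, 4.74 and 5.08 in the WT arrays. Probe set 10531866 was at 4.07, 3.93 and 3.98 in KO, against 3.94, 4.02 and 3.9 in WT. All these values lay below the medians of the arrays, which ran from 6.41 to 6.49. The differences of -0.02 (95% interval -0.31 to 0.26) and 0.04 (-0.19 to 0.26) differed in sign and were smaller than the SDs of either group. Of 10 nerve and Schwann cell markers measured, 7 were positive, where 53% of all genes were, and 2, S100b and Mbp, were higher at an unadjusted p under 0.05, where 4.06% of all genes were. Syt1, Snap25 and Tubb3, which are known from neurons, differed by -0.16, -0.17 and -0.19. Nefl and Ncam1, also known from neurons, differed by 0.20 and 0.05. None of these was at an unadjusted p under 0.05 in limma.

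KO and WT arrays overlapped for Map2k3, Map2k4 and Map2k6. Map2k3 was at 8.66, 8.73 and 8.63 in the KO arrays, against 8.68, 8.93 and 8.30 in the WT arrays. The KO arrays were within 0.10 of each other and the WT arrays spanned 0.63, with means of 8.68 ± 0.05 in KO and 8.64 ± 0.32 in WT (SD, n = 3 each) and a difference of 0.04 (95% interval -0.36 to 0.43). Without WT replicate 3 that difference was -0.13, and without WT replicate 2 it was 0.19. The most similar profiles to Map2k3 were those of Purb, a single-stranded nucleic acid binding protein (distance 0.022 log2 units), Pgls, an enzyme of the pentose phosphate pathway (0.031), and Tbrg4 (0.044).

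Map2k4 was at 8.27, 8.26 and 8.19 in the KO arrays, against 8.25, 8.40 and 8.20 in the WT arrays. Its difference was -0.04, with an interval of -0.28 to 0.19. Map2k6 was at 6.90, 7.01 and 6.66 in KO, against 6.73, 7.05 and 6.82 in WT. The mean was 6.86 ± 0.18 in KO and 6.87 ± 0.17 in WT (SD, n = 3 each), a difference of -0.01 with an interval of -0.34 to 0.32. The highest Map2k6 value, 7.05, stood on WT replicate 2, the array with the highest muscle score (1.96), and the lowest on KO replicate 3. The second highest, 7.01, stood on KO replicate 2, with a muscle score of -1.18. After adjustment for the muscle score the Map2k6 difference was 0.05, and with the lymphocyte score 0.13.

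WT replicate 2 was the highest WT array for 7 of the 11 kinase probe sets and the highest of all 6 arrays for 5. WT replicate 3 was the lowest WT array for 7 and KO replicate 3 the lowest KO array for 7. The SD over 6 arrays ran from 0.064 for a Mapk10 probe set to 0.59 for Mapk11, with a median of 0.12, against a median of 0.18 for all probe sets. Mapk11 varied more than 96.5% of all probe sets, and Mapk8 more than 5.47%. For the 9 probe sets other than Mapk11 and Mapk12, the lowest lower bound of the 95% intervals was -0.42 and the highest upper bound 0.43 on the log2 scale. Their adjusted p-values from limma ran from 0.706 to 0.991.

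**Figure D4:**
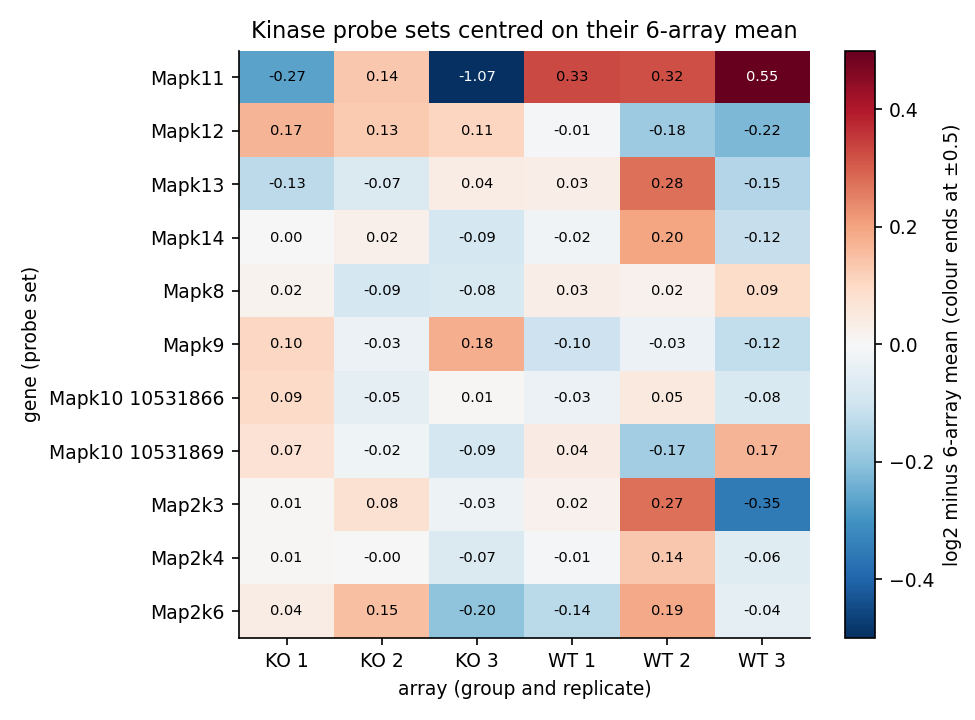
Each kinase probe set on each array as its log2 level minus its mean over the 6 arrays, with red for higher and blue for lower values and the colour ending at ±0.5. Mapk11 ranges from -1.07 on KO replicate 3 to 0.55 on WT replicate 3, and WT replicate 2 is raised for Mapk13, Mapk14, Map2k3, Map2k4 and Map2k6.

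Around these kinases, 8 lists held 122 entries of the same cascades, of which 110 genes were measured, with the brightest probe set standing for a gene. The lists were drawn up with earlier results of these data known. In all, 9 genes were higher and 5 lower at an unadjusted p under 0.05, or 12.7%, where 5.84% of all 19937 genes passed that threshold in the same fit, 4.06% higher and 1.79% lower. None passed the adjusted p, which 0 of all 19937 genes so represented did. Atf7 was among the 110 genes through probe set 10433034, and its lower probe set 10433032 was not used. The 14 genes became 7 without KO replicate 1, 31 without KO replicate 2, 9 without KO replicate 3, 9 with WT replicate 2 left out, 5 with WT replicate 3 left out and 8 after adjustment for the muscle score. The share of all genes in each of those fits is not given here, and it need not stay at 5.84%. Without KO replicate 2, Atf3 had an adjusted p of 0.335 at an unadjusted p of 0.051 from limma. With all arrays it had 0.696 at 0.034, so small p-values were more frequent over the whole array without KO replicate 2. Groups did not overlap for 12 genes with KO above and 13 with KO below, or 22.7%, where 13.9% of all genes did not overlap, 7.96% with KO above and 5.97% with KO below. The median difference was -0.0037, against 0.012 for all genes, and 53% of all genes were positive.

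Upstream, of 25 MAP3K and adaptor genes 0 were higher and 1 lower, Map3k9, at an unadjusted p under 0.05. The list had a median difference of 0.0091. Map3k1, an activator of the JNK pathway, was at 8.37, 8.75 and 7.88 in the KO arrays, against 8.83, 8.89 and 8.77 in the WT arrays. The log2 difference was -0.49 (SE 0.21, unadjusted p 0.055 from limma). All KO arrays were below all WT arrays, and the lowest was KO replicate 3, the array low in lymphocyte markers. Map3k19 differed by -0.46 (unadjusted p 0.053 from limma) and the mixed lineage kinase gene Map3k9 by -0.31 (0.037), and both also had their lowest value on KO replicate 3. After adjustment for the lymphocyte score these differences were -0.16 for Map3k1, -0.16 for Map3k19 and -0.19 for Map3k9. Without KO replicate 3 they were -0.27, -0.26 and -0.24 in the same order. In the list of stress receptors and inputs 0 of 11 genes were higher and 1 lower. The median difference was -0.04. That gene was Myd88, the adaptor of Toll-like and interleukin 1 receptors, which averaged 9.27 ± 0.07 in KO and 9.54 ± 0.09 in WT (SD, n = 3 each), a difference of -0.27. Tnfrsf1b and Tlr4, receptors for tumour necrosis factor and bacterial lipopolysaccharide, differed by -0.41 and 0.26. Without KO replicate 3 these were -0.15 for Tnfrsf1b and 0.16 for Tlr4, and without KO replicate 2 Tlr4 was at 0.40.

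Scaffold proteins hold the kinases of a cascade together, and their list also held the regulators Nlk and Gps2. Of its 9 genes 1 was higher, Mapk8ip1, and 1 lower, Nlk, at an unadjusted p under 0.05. Over the list the median difference was -0.01. Mapk8ip1, which encodes the JNK scaffold JIP1, was at 7.94, 7.72 and 7.90 in the KO arrays, against 7.45, 7.34 and 7.53 in the WT arrays. Every KO array was above every WT array, with a log2 difference of 0.42 (SE 0.11), 1.33-fold higher, an unadjusted p of 0.0070 and an adjusted p of 0.696 from limma. It was 0.39 without KO replicate 3 and 0.37 after adjustment for the lymphocyte score. Nlk, a MAPK-like kinase, differed by -0.28 and Gps2, an inhibitor of JNK signalling, by -0.20, or -0.13 without WT replicate 3. Of 7 other MAPK and MAP2K genes measured 1 was higher, Mapk4, an atypical MAPK, by 0.31, while Mapk15 and the ERK activator gene Map2k1 differed by 0.12 and -0.09. Mapk4 was at 0.20 without WT replicate 3, and Mapk15 at 0.054 when WT replicate 1 was left out. When KO replicate 3 was left out, Mapk15 was at 0.073 and Map2k1 at -0.020.

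MAPK phosphatases take the activating phosphates off again, and the list held those of p38 and JNK together with some that act chiefly on ERK, such as Dusp6. Of 19 genes 2 were higher and 1 lower at an unadjusted p under 0.05. The median of the list was 0.03. Ppm1a, a serine/threonine phosphatase that acts on p38 and MAP2Ks, was at 9.76, 10.03 and 10.28 in the KO arrays, against 9.55, 9.44 and 9.47 in the WT arrays. All KO arrays were above all WT arrays, with a difference of 0.54 (SE 0.14), 1.45-fold higher, an unadjusted p of 0.0077 and an adjusted p of 0.696 from limma. The difference was 0.41 without KO replicate 3 and 0.40 after adjustment for the lymphocyte score. Dusp4, a dual-specificity MAPK phosphatase, averaged 7.54 ± 0.26 in KO and 7.01 ± 0.29 in WT (SD, n = 3 each), with overlapping groups.

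Dusp2, a dual-specificity phosphatase known from activated lymphocytes, was at 7.49, 8.10 and 6.66 in the KO arrays, against 8.23, 8.31 and 8.34 in the WT arrays. Its KO arrays had the same order as those of Mapk11, and its difference of -0.88 (SE 0.33) was -0.50 without KO replicate 3 and -0.31 after adjustment for the lymphocyte score. All 14 T cell and all 11 B cell markers measured had a lower mean in KO, where 53% of all genes were positive. At an unadjusted p under 0.05 in limma 2 of the T cell and 0 of the B cell markers were lower, where 1.79% of all genes were. All KO arrays were below all WT arrays for 7 T cell markers and 1 B cell marker, where this held for 5.97% of all genes. On KO replicate 2 the mean centred levels of these lists, 0.56 and 0.80, lay within the WT range.

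Downstream, 1 of 6 substrate kinase genes was higher at an unadjusted p under 0.05. The list had a median difference of 0.02. Mapkapk2, which encodes the p38-activated kinase MK2, was at 10.03, 9.84 and 10.15 in the KO arrays, against 9.76, 9.73 and 9.47 in the WT arrays. All KO arrays were above all WT arrays, with a difference of 0.35 (SE 0.13), 0.28 without KO replicate 3 and 0.23 after adjustment for the lymphocyte score. Mapkapk3 and Mapkapk5, which encode related kinases, differed by -0.28 and 0.12. Mapkapk3 was at -0.15 without KO replicate 3, and Mapkapk5 at 0.047 without WT replicate 3 and 0.20 without WT replicate 2.

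Of 14 transcription factor and coactivator substrates 2 were higher and 0 lower at an unadjusted p under 0.05. Atf7 was itself among the 14, represented by its brighter probe set 10433034 (-0.17). Its other probe set 10433032, at -2.66, was not used in the list. The median difference was -0.03. Creb5, a paralog of Atf7 and Atf2, was at 9.01, 8.58 and 8.43 in the KO arrays, against 8.26, 8.11 and 8.10 in the WT arrays, a difference of 0.51 (SE 0.16) that became 0.34 when KO replicate 1 was left out, and 0.63 when KO replicate 3 was. Ppargc1a, a p38-phosphorylated coactivator of mitochondrial genes, was at 8.13, 7.90 and 8.82 in KO, against 7.60, 7.48 and 7.18 in WT. Its difference of 0.86 (SE 0.25) was 0.59 without KO replicate 3 and 0.47 after adjustment for the lymphocyte score. Max, the partner of Myc proteins, differed by -0.21.

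Of 19 stress-inducible and immediate-early genes 2 were higher and 1 lower at an unadjusted p under 0.05. Over the list the median difference was 0.01. Ptgs2, the inducible cyclooxygenase, was at 6.86, 6.51 and 6.62 in the KO arrays, against 6.23, 5.89 and 6.33 in the WT arrays, a difference of 0.52 (SE 0.15). Atf3, a stress-induced ATF-family factor, averaged 7.11 ± 0.05 in KO and 6.81 ± 0.15 in WT (SD, n = 3 each), a difference of 0.29. For both, all KO arrays were above all WT arrays. Egr3 differed by -0.40, with its lowest value on KO replicate 3, by -0.23 without that array, and by -0.15 after adjustment for the lymphocyte score. All genes named from the 8 lists had adjusted p-values of 0.696 or higher from limma on the probe sets that represented them.

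**Figure D5:**
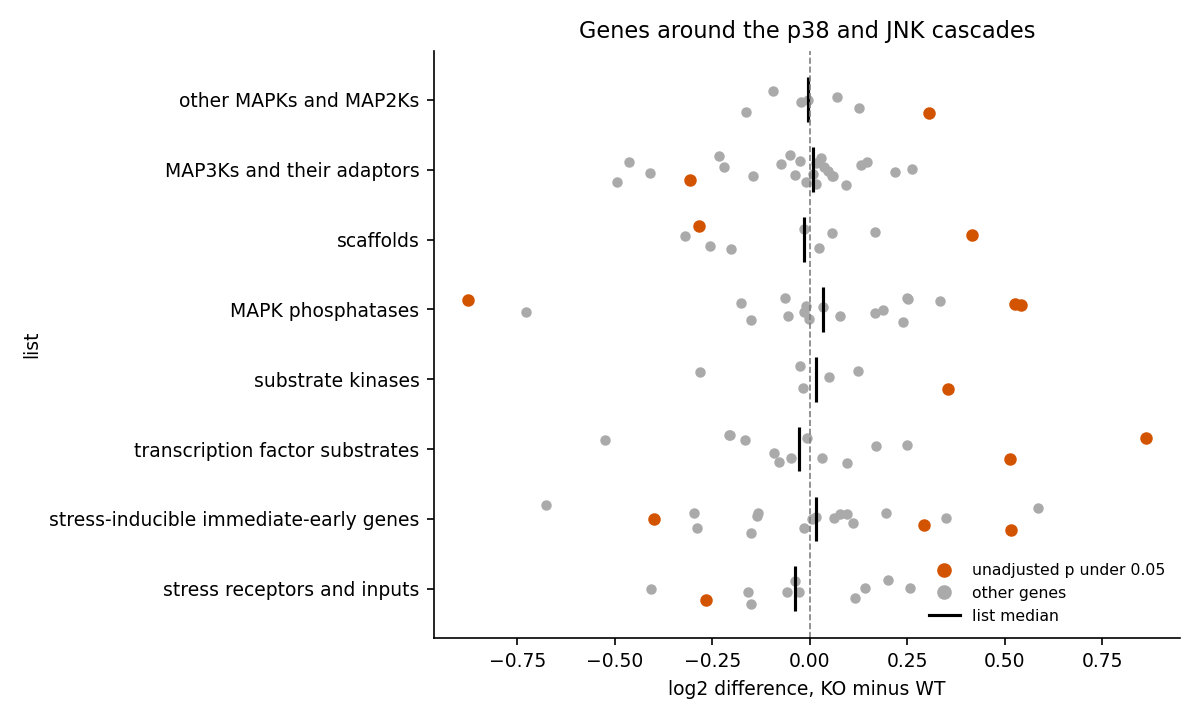
Log2 difference, KO minus WT (x axis), of each measured gene in the 8 lists (y axis), with orange for an unadjusted p under 0.05 and a black bar for the list median. Medians lie between -0.04 and 0.03, with single genes from -0.88 (Dusp2) to 0.86 (Ppargc1a). Atf7 is shown by its probe set 10433034 (-0.17).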

How the data were processed

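Gene expression was measured on 6 biotin-labelled 1-colour arrays, 3 KO and 3 WT, grouped by sample title. The deposited table gives log2 expression levels for single arrays, made with RMA, affy and limma, per the submitters' processing notes. Versions, options and the genome build are not given in the sources used here. RMA makes array distributions alike, so it would hide a change common to most genes. With 3 arrays a group, the number of arrays limits precision.

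Gene symbols came from the platform's annotation table, in which 21640 had 1 symbol, 1321 several and 11799 none, and all 10 kinase genes matched RefSeq by Entrez identifier. KO was compared with WT with limma (version 3.58.1, R version 4.3.3, two-sided moderated test from lmFit and eBayes) over 34760 probe sets, with Benjamini-Hochberg adjustment and a threshold of 0.05. The test was checked on simulated data. Genes of lists were represented by the probe set with the highest mean. The text names every kinase probe set, Atf7, the 3 genes of each list with the lowest p, and the 3 nearest profiles of the 3 kinase genes with the largest SD over 6 arrays. Kinases and lists were chosen with earlier results of these data known. Alternatives were other scalings, a filter on dim probe sets, 1 probe set per gene, another variance model, the replicate number as a block, lymphocyte and muscle scores as covariates, and leaving out each array.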

Additional observations from a re-analysis of the deposited data

How the results depend on the processing

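None of the 11 kinase probe sets passed the adjusted p under any of 14 alternatives, where the smallest was 0.272. Of 150 kinase values under alternatives 135 kept their direction. Mapk11 stayed negative (-1.07 to -0.31) and Mapk12 positive (0.23 to 0.34) in all 14. Mapk13, at -0.11, had the largest kinase difference that turned, and the others were at -0.04 to 0.04. Map2k6 was at 0.021 after a second quantile normalization, 0.019 with arrays shifted to a common median, 0.13 with the lymphocyte score and 0.046 with the muscle score. Mapk10 probe set 10531869 was at 0.0027 with a common median and 0.029 with the lymphocyte score, where Map2k1 was at 0.0061. Leaving out each array in turn gave ranges of -0.21 to 0.00038 for Mapk13, -0.11 to 0.046 for Mapk14, -0.12 to 0.054 and -0.0012 to 0.071 for the Mapk10 probe sets, -0.13 to 0.19 for Map2k3, -0.086 to 0.011 for Map2k4 and -0.086 to 0.090 for Map2k6.

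The 2 kinase probe sets at an unadjusted p under 0.05 became 1 with the lymphocyte score, 0 with the muscle score and 0 to 2 without each array. The share of all probe sets at that threshold under these alternatives is not given here. The 2 probe sets called over the whole array, which include Atf7 probe set 10433032, became 1 after a second quantile normalization and among the brighter probe sets, 0 with 1 probe set per gene (where that Atf7 probe set was not used), the lymphocyte score or the replicate block, 3 with the muscle score, and 0 to 2 without each array. The difference of that Atf7 probe set stayed at -2.72 to -2.56 in all the alternatives that used it, and its adjusted p was 0.106 with the lymphocyte score, 0.0792 with the replicate block, 0.0745 without WT replicate 1 and 0.147 without WT replicate 3. Correlations of deviations from the group means were 0.0015, 0.033 and 0.044 between KO and WT arrays of the same replicate number. Between arrays of different numbers they ran from -0.060 to 0.026. With 3 arrays a group they cannot show whether the arrays were paired. The replicate block left 2 kinase probe sets at an unadjusted p under 0.05 in limma (0.042 for Mapk11 and 0.048 for Mapk12).

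The 14 cascade genes at that threshold became 8 with the muscle score and 5 to 31 without each array. The share of all genes in each of these fits is not given here. With the lymphocyte score the list medians were 0.11 for phosphatases, 0.067 for stress receptors and inputs, 0.072 for substrate kinases and 0.062 for transcription factor substrates, and the phosphatase median was 0.17 among the brighter probe sets. That filter left the difference of each remaining gene unchanged and dropped the dim genes from the list. Without each array the medians ran from -0.032 to 0.080 for other MAPKs and MAP2Ks, -0.043 to 0.024 for MAP3Ks, -0.060 to 0.021 for transcription factor substrates, -0.080 to 0.019 for stress receptors and inputs, -0.085 to 0.036 for scaffolds, -0.013 to 0.082 for stress-inducible genes and -0.00033 to 0.071 for substrate kinases. The causes of the shifts other than that with the filter on dim probe sets were not tested.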
